A study of Mus musculus with 54 samples.

Results

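The 38 genes described here encode the proteins that build the peroxisome and the enzymes that work inside it, other than those of straight-chain fatty acid β-oxidation. They were taken by symbol from a table of 20162 rows, and each stood on 1 row. By role they comprised 8 peroxins of matrix protein import, 3 peroxins that insert membrane proteins, 2 Pex11 proteins of elongation and division, 3 membrane transporters and channels, 2 enzymes of α-oxidation, 4 of branched-chain and bile acid side-chain oxidation, 3 of ether lipid synthesis, 4 that act on glyoxylate, urate and amino acids, 5 that act on coenzyme A, NADH, malonyl-CoA or epoxides, a protease with 2 antioxidant enzymes, and the dehydrogenase-like protein Hsdl2.

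Livers came from male C57BL/6J mice, labelled WT, which all received a high-fat diet and were housed singly. The diet began at 8 weeks of age. After a run-in on placebo pellets, gelatin pellets without di-isononyl phthalate (DINP, a plasticizer) or with it were given for 20 weeks, at 1.5, 15 or 150 mg per kg body weight per day (written mg/kg below). The groups held 14, 13, 13 and 14 mice in this order, with 1 library of the medial liver lobe per mouse, and the mice without DINP are called control. All groups ate the high-fat diet, so that no value here refers to lean liver. Each library was made from the 3′ ends of polyadenylated RNA, and a value was taken to be a TPM, an abundance scaled to library size and transcript length, that had been rounded and scaled again between samples, because the values of a sample are whole multiples of 1 step. This step of about 1 unit sets the resolution, and sequencing depth cannot be read from the values. Because such values are length-scaled while the reads come from 3′ ends, levels of different genes are not compared here.

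Peroxisomes import folded enzymes from the cytosol: the receptors Pex5 and Pex7 bind cargo, dock on Pex13 and Pex14 at the membrane, and are pulled back out by an ATPase complex that holds Pex6 and is anchored by Pex26, after ubiquitination by a ligase that holds Pex2 and Pex10. In the liver the organelle shortens fatty acids that mitochondria handle poorly, removes the methyl-branched and 2-hydroxylated ones, finishes bile acids, starts ether lipids and degrades hydrogen peroxide, urate and glyoxylate. In rodents, ligands of the nuclear receptor PPARα are known to increase the number of peroxisomes, and Pex11a is a textbook target of that receptor.

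Promoters were available for 31 of the 38 genes (RefSeq, GRCm38.p6, 250 bases before to 50 after the start site). The windows are shown for the genes on which the results turn: Pex11a and Hsdl2, which were higher at the highest dose, Phyh and Uox, which were higher at the middle dose, and Cat, the gene of catalase, whose window held a match to the motif searched. Each line gives the 250 bases before the start site, 5′ to 3′, in lower case, with capitals marking that match.
Pex11a, chr7:79743132-79743381, minus strand: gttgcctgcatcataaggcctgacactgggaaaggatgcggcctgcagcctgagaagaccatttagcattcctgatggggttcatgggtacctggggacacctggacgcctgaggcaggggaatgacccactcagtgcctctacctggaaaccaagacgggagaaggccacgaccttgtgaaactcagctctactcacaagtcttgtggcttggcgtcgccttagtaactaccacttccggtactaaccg
Hsdl2, chr4:59581313-59581562, plus strand: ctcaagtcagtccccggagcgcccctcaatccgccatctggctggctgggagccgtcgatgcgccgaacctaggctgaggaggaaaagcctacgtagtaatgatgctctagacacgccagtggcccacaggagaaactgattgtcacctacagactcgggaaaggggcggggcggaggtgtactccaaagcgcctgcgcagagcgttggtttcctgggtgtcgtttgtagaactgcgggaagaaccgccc
Phyh, chr2:4918746-4918995, plus strand: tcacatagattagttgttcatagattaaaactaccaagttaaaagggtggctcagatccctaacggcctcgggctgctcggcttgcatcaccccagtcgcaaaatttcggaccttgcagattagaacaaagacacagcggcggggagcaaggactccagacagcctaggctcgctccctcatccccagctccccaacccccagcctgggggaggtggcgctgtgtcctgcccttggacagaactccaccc
Uox, chr3:146596899-146597148, plus strand: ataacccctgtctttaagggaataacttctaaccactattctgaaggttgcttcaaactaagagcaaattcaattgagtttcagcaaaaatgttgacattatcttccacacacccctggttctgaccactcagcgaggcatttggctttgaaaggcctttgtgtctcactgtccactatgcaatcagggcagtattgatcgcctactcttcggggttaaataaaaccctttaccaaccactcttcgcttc
Cat, chr2:103485154-103485403, minus strand: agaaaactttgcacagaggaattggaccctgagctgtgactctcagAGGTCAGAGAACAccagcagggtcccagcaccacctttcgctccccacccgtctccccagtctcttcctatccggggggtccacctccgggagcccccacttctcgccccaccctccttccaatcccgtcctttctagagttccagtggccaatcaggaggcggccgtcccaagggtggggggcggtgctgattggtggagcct
The motif was the direct repeat of AGGTCA with a spacer of 1 base, AGGTCANAGGTCA, which PPARα and other nuclear receptors bind. It was searched on both strands with up to 2 mismatches in its 12 fixed letters. Among the 31 genes, 2 (6.45%) held a match, against 4.40% of the 27025 genes of the promoter table and 3.98% of the 8370 that were also tested. These were Cat, with AGGTCAGAGAACA beginning 204 bases before the start site, and Acox2, with AGGACAGAGGTGA just after it. With up to 1 mismatch none of the 31 genes held a match in any of its windows, against 0.644% of all genes. The windows of Pex11a, Hsdl2, Pxmp4, Phyh and Uox held no match, which says only that these letters are not within these 300 bases. GC content was averaged over the windows of a gene where it had more than 1. Its median was 57.3% (42.7 to 71.0%), against 60.7% among the genes tested. It was 57.3% in the 11 peroxins and 57.2% in the 20 other genes.

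Libraries differed in how well they resembled their own group. The median Pearson correlation with the other mice of the group, across genes, was 0.947 to 0.967 in 48 libraries and lower in 6: in the 15 mg/kg group 0.939, 0.932, 0.908, 0.933 and 0.945 in replicates 5 to 9, and 0.936 in control replicate 8. These 6 libraries are said below to stand apart, and the counts and calls that rest on the 15 mg/kg group are given with and without them. Control replicate 8 had the lowest summed value of its group (747258, median 964762) and the most rows above 0 (14221, median 12820). It is among the control mice that set the control ranges below, and its marker sums are not given separately. Hepatocyte markers, among them albumin, summed to 24280 to 52020 in the 54 libraries. In the libraries of the 15 mg/kg group that stood apart the 6 cholangiocyte markers summed to 32.1 to 255 and the 10 stellate cell and fibroblast markers to 161 to 428, against 15.3 to 33.3 and 139 to 202 in the other 8 libraries of that group. Most of the former sum was Spp1, which macrophages express as well (21.0 to 238 against 10.2 to 22.8), and the other 5 cholangiocyte markers summed to 4.39 to 16.8 against 3.06 to 10.5. Lymphocyte and neutrophil markers summed to 9.87 to 48.7 against 6.81 to 16.3, and adipocyte markers to 16.6 to 77.1 against 4.08 to 42.8. Hepatocyte markers (30540 to 52020 against 38180 to 45670) and macrophage markers (151 to 435 against 175 to 318) reached both lower and higher. Endothelial markers summed to 82.4 to 101 against 87.5 to 115, and erythroid markers to 344 to 1590 against 318 to 1806. The part of these cell types in the results was not tested.

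All 38 genes passed the filter of a mean value of at least 1, as did 11431 of the 20162 rows. A gene was said to have passed with an adjusted p under 0.05 (limma on log2(value + 1), Benjamini-Hochberg adjustment over the 11431 rows of a contrast). The log2 fold change (log2FC) is on that scale, which understates the change of genes with low values. In bulk liver RNA, fewer hepatocytes and less RNA per hepatocyte cannot be told apart. The 3 comparisons with control share the same 14 control mice.

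At 15 mg/kg, 11 of the 38 genes (28.9%) were higher than in control and 1 (2.63%) was lower, against 7.57% and 6.61% of all genes tested. Without the libraries that stand apart, 6 were higher and 0 lower, against 2.48% and 2.26% of all genes. At 150 mg/kg, 3 genes (7.89%) were higher and 0 lower, against 1.49% and 0.682% of all genes, and the counts were the same without those libraries. For that fit the share of all genes at 150 mg/kg was not computed. At 1.5 mg/kg, 0 were higher and 1 was lower, against 0.674% and 0.525%, and the count is that of a single gene, Pex14. Beyond a log2FC of 0.5 lay 3 genes at 15 mg/kg (7.89%, against 3.72% of all genes), 2 genes there without those libraries (against 1.06%), and 1 at 150 mg/kg (2.63%, against 0.84%). The median log2FC of the 38 genes was -0.04, 0.11 and 0.11 at 1.5, 15 and 150 mg/kg, and the median of all genes tested lay between -0.01 and 0.00. The median of the 38 genes was -0.06, 0.06 and 0.09 without the libraries that stand apart.

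**Figure D1:**
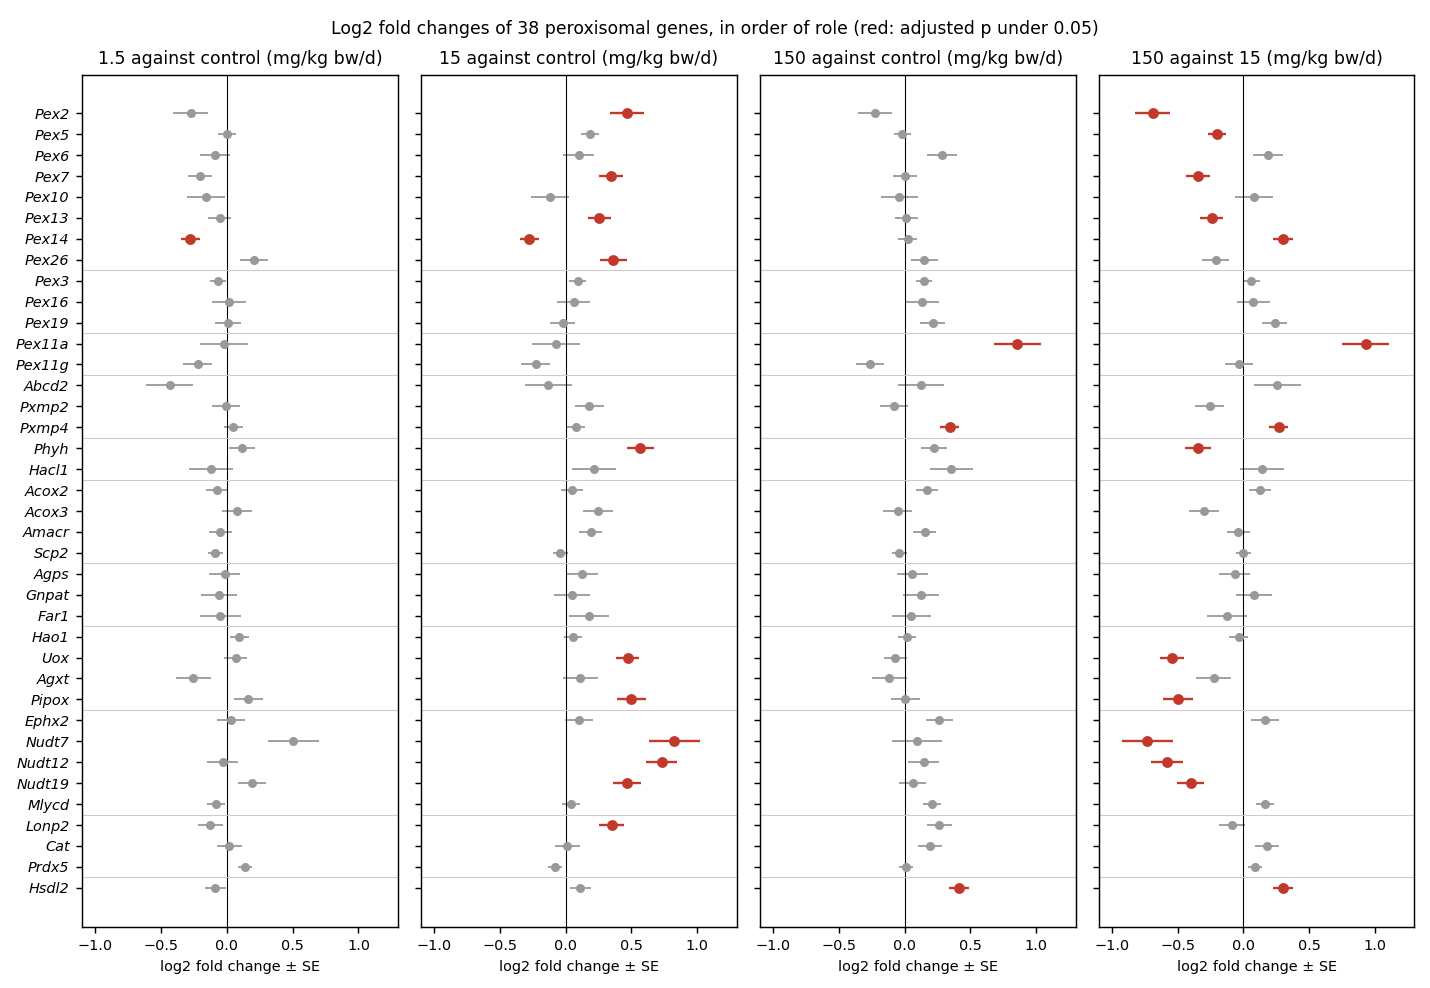
Log2 fold changes with their standard errors (x axis) of the 38 peroxisomal genes (y axis, in order of role, grey lines between roles) for each dose against control and for 150 against 15 mg/kg. Red marks an adjusted p under 0.05: Pex14 at 1.5, 12 genes at 15 and 3 genes at 150 mg/kg, and 14 genes between the upper doses.

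The coefficient of variation among control mice was 15.9% at the median of the 38 genes (7.10 to 50.5%), against 24.1% among all genes tested. It was 19.2% (6.06 to 58.2%) at 1.5, 23.4% (7.13 to 58.3%) at 15 and 14.6% (5.90 to 57.5%) at 150 mg/kg, against 24.0%, 30.7% and 24.9% among all genes. The genes thus spread most at 15 mg/kg, the dose with 5 of the libraries that stand apart. The 4 groups accounted for 19.5% of the variance of log2 values at the median gene, against 10.9% among all genes tested. Averaged over the 38 genes, the log2 difference from the control mean ran from -0.33 to 0.19 in control mice, from -0.20 to 0.09 at 1.5, from -0.03 to 0.42 at 15 and from -0.004 to 0.20 at 150 mg/kg, so that all 4 groups overlapped.

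Of the 2 Pex11 genes, only Pex11a passed the test in a contrast. Pex11a (ENSMUSG00000030545.9, GRCm38 chr7:79735957-79743131), whose protein elongates the peroxisomal membrane before division, had values of 222 to 467 in control mice (median 339). They were 178 to 556 (median 284) at 1.5, 143 to 706 (median 331) at 15 and 460 to 910 (median 590) at 150 mg/kg. At the highest dose 13 of 14 mice lay above the highest control mouse and the remaining mouse lay within the control range, while both lower doses spread across it. The log2FC at 150 mg/kg was 0.86 (SE 0.177, adjusted p = 0.00259). At 1.5 and 15 mg/kg it was -0.02 (95% interval -0.38 to 0.33) and -0.07 (-0.43 to 0.28). Pex11a was also higher at 150 than at 15 (log2FC 0.93, adjusted p = 0.000159) and than at 1.5 mg/kg (0.88, adjusted p = 0.00185). Pex11g had a log2FC of -0.22, -0.23 and -0.26 at the 3 doses, none of which passed.

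Among the membrane transporters and channels, Pxmp4 passed and Abcd2 and Pxmp2 did not. Pxmp4, an integral protein of the peroxisomal membrane (ENSMUSG00000000876.11, chr2:154585758-154603708), had values of 44.3 to 63.6 in control mice (median 54.2). They were 43.4 to 77.7 (median 55.9) at 1.5, 47.0 to 61.6 (median 56.4) at 15 and 51.3 to 81.0 (median 67.2) at 150 mg/kg. The groups overlapped, and 10 of 14 mice at the highest dose were above the highest control mouse. The log2FC at 150 mg/kg was 0.34 against control (SE 0.0714, adjusted p = 0.00259), 0.27 against 15 (adjusted p = 0.00609) and 0.30 against 1.5 mg/kg (adjusted p = 0.00985). Abcd2, a transporter of very long-chain acyl-CoA, had a log2FC of -0.44, -0.13 and 0.13 at the 3 doses, and Pxmp2, a channel protein, of -0.01, 0.18 and -0.08.

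Hsdl2 separated the highest dose from control in every mouse. This short-chain dehydrogenase-like protein (ENSMUSG00000028383.17, chr4:59581563-59618689) had values of 17.9 to 25.7 in control mice (median 21.8) and of 26.4 to 34.2 (median 28.5) at 150 mg/kg. Values were 15.4 to 29.6 (median 20.6) at 1.5 and 16.2 to 31.8 (median 23.5) at 15 mg/kg and overlapped both. Of the 38 genes Hsdl2 alone had no overlap between the highest dose and control, as did 0.0962% of all genes tested in the same direction. The log2FC at 150 mg/kg was 0.41 (SE 0.0771, adjusted p = 0.000611), and 0.50 against 1.5 (adjusted p = 3.86e-05) and 0.30 against 15 mg/kg (adjusted p = 0.00405).

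**Figure D2:**
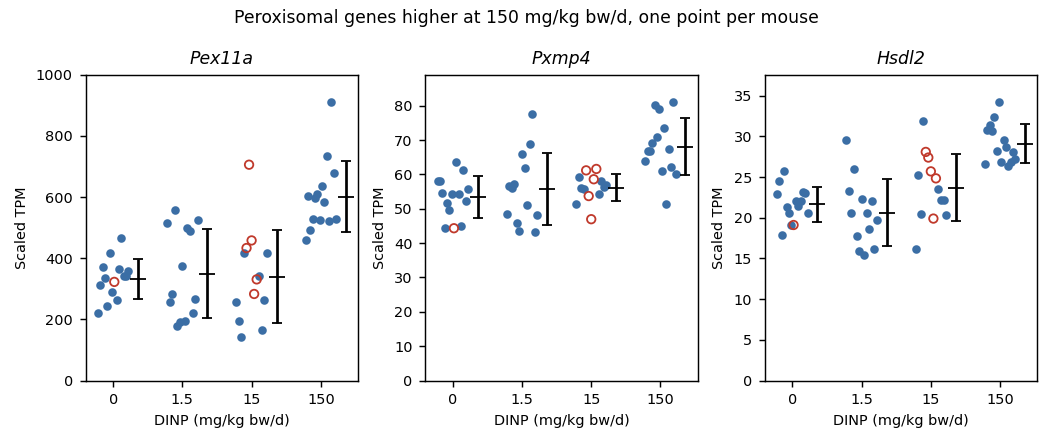
Scaled TPM (y axis, from 0) of Pex11a, Pxmp4 and Hsdl2 in each mouse by DINP dose (x axis), with the mean ± SD beside the points. Open red circles are the 6 libraries that stand apart. Points at 150 mg/kg lie above the control points in 13, 10 and 14 of 14 mice, counted from the highest control mouse.

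Matrix import peroxins passed in both directions at 15 mg/kg, 4 higher and 1 lower of 8, and none of these 5 passed without the libraries that stand apart. Pex2, part of the ligase that releases import receptors (chr3:5560188-5576239), had values of 12.5 to 28.1 in control mice (median 20.3). They were 12.6 to 21.0 (median 16.8) at 1.5, 16.4 to 46.4 (median 24.9) at 15 and 10.7 to 26.7 (median 16.7) at 150 mg/kg. In the 15 mg/kg group the 5 libraries that stand apart held 36.8 to 46.4, above every control mouse, and the other 8 held 16.4 to 27.2, within the control range. The log2FC was 0.47 (SE 0.131, adjusted p = 0.0118) with all libraries and 0.09 (adjusted p = 0.743) without those that stand apart.

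Pex7, the receptor for the N-terminal targeting signal that Phyh carries, was 4.59 to 8.11 in control mice (median 6.38). Values were 4.17 to 7.11 (median 5.06) at 1.5, 5.71 to 12.1 (median 8.18) at 15 and 5.19 to 9.32 (median 6.19) at 150 mg/kg. The highest values of all groups were thus at 15 mg/kg, where the libraries that stand apart had 8.94 to 12.1 and the others 5.71 to 9.95. The log2FC there was 0.35 (SE 0.0920, adjusted p = 0.00741), and 0.12 (adjusted p = 0.537) without those libraries.

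Pex13, part of the docking complex, was 6.88 to 10.4 in control mice (median 8.11), 6.18 to 9.31 (median 8.09) at 1.5, 7.04 to 16.6 (median 9.67) at 15 and 7.24 to 10.5 (median 8.06) at 150 mg/kg. Its log2FC at 15 mg/kg was 0.25 (SE 0.0857, adjusted p = 0.0360), and 0.08 (adjusted p = 0.659) without the libraries that stand apart. Pex26, the membrane anchor of the ATPase complex, was 2.98 to 5.61 in control mice (median 4.02), 2.94 to 6.18 (median 5.21) at 1.5, 4.07 to 9.95 (median 5.12) at 15 and 3.06 to 6.91 (median 4.24) at 150 mg/kg. All 13 mice at 15 mg/kg were above the control median. The log2FC was 0.36 (SE 0.103, adjusted p = 0.0125), and 0.27 (adjusted p = 0.175) without those libraries. For values this low, the step of about 1 unit is coarse beside the difference between these medians.

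**Figure D3:**
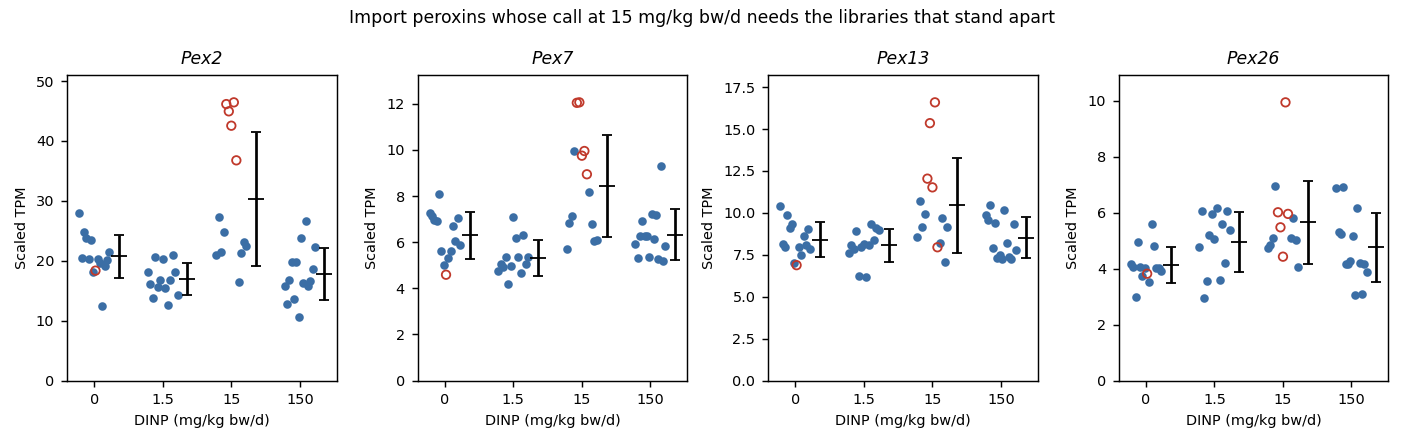
Scaled TPM (y axis, from 0) of the import peroxins Pex2, Pex7, Pex13 and Pex26 in each mouse by DINP dose (x axis), with the mean ± SD. Open red circles are the 6 libraries that stand apart: for Pex2, 5 of them at 15 mg/kg lie at 36.8 to 46.4 and the other 8 mice of that dose at 16.4 to 27.2.

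Pex14, the docking partner of Pex13, went the other way. Its values were 21.3 to 38.3 in control mice (median 27.4), 18.2 to 29.5 (median 22.9) at 1.5, 18.6 to 26.5 (median 22.9) at 15 and 23.4 to 33.9 (median 27.9) at 150 mg/kg. No mouse at 15 mg/kg was above the control median, and both lower doses overlapped with control. The log2FC was -0.28 at 1.5 (SE 0.0735, adjusted p = 0.0426) and -0.28 at 15 mg/kg (SE 0.0735, adjusted p = 0.00722), and 0.02 at 150 mg/kg. The call at 1.5 mg/kg was lost when any of 18 of the 27 libraries was left out (adjusted p from 0.0177 to 0.0823). At 15 mg/kg, the log2FC was -0.25 (adjusted p = 0.0832) without the libraries that stand apart. The 8 mice of that dose left in this fit had values of 19.0 to 26.5. With fewer mice a call can be lost though the log2FC changes little. Directly compared, Pex14 was higher at 150 than at 15 (log2FC 0.30, adjusted p = 0.00234) and than at 1.5 mg/kg (0.30, adjusted p = 0.0092).

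The remaining import peroxins did not pass against control. Pex5, the receptor for the C-terminal targeting signal, was 13.9 to 19.6 in control mice (median 15.9), 12.6 to 18.6 (median 16.5) at 1.5, 12.4 to 21.3 (median 18.4) at 15 and 11.3 to 18.8 (median 16.7) at 150 mg/kg. It was higher at 15 than at 1.5 (log2FC 0.19, adjusted p = 0.0454) and lower at 150 than at 15 mg/kg (-0.20, adjusted p = 0.0276), with groups that overlapped. Pex6, the ATPase, was 7.65 to 16.2 in control mice (median 13.0), 8.94 to 17.8 (median 10.8) at 1.5, 7.73 to 23.0 (median 13.3) at 15 and 11.4 to 17.8 (median 15.7) at 150 mg/kg, and was higher at 150 than at 1.5 mg/kg (log2FC 0.37, adjusted p = 0.0481). Leaving out single libraries ended the call of Pex5 between 15 and 1.5 mg/kg in 15 of 26 fits and that of Pex6 in 22 of 27. Pex10, the partner of Pex2 in the ligase, did not pass in any contrast, with a log2FC of -0.16, -0.12 and -0.04 at the 3 doses.

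Of the 3 peroxins that insert membrane proteins, 0 passed against control. Pex3, the membrane receptor of this pathway, was 16.8 to 20.8 in control mice (median 20.1), 14.7 to 21.5 (median 19.6) at 1.5, 16.8 to 25.4 (median 21.1) at 15 and 18.4 to 29.0 (median 21.3) at 150 mg/kg. It was higher at 150 than at 1.5 mg/kg (log2FC 0.22, adjusted p = 0.0306), a call lost in 6 of 27 fits that left out a library. The exons of Pex3 overlap with those of Adat2 on the opposite strand, and those of Pex13 with Pus10. Pex16 and Pex19 had a log2FC of 0.14 and 0.21 at 150 mg/kg and of 0.06 and -0.02 at 15 mg/kg. Without the libraries that stand apart Pex19 was higher at 150 than at 15 mg/kg (log2FC 0.44, adjusted p = 0.0014), as was Pex6 (0.47, adjusted p = 0.0014).

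The matrix enzymes that were higher at 15 mg/kg came from several pathways. They were Phyh, Uox, Pipox, Nudt7, Nudt12, Nudt19 and Lonp2, and all but Nudt7 also passed without the libraries that stand apart. Phyh, the phytanoyl-CoA hydroxylase that starts α-oxidation (ENSMUSG00000026664.7, chr2:4919019-4938730), had values of 420 to 663 in control mice (median 559). They were 397 to 772 (median 634) at 1.5, 468 to 1111 (median 781) at 15 and 506 to 742 (median 654) at 150 mg/kg. At 15 mg/kg, 11 of 13 mice were above the highest control mouse. The log2FC was 0.57 (SE 0.1002, adjusted p = 7.48e-05), 0.51 (adjusted p = 0.00161) without the libraries that stand apart. At 150 mg/kg the log2FC was 0.22 (adjusted p = 0.272), and Phyh was lower there than at 15 mg/kg (-0.34, adjusted p = 0.0102). Hacl1, the lyase that acts after Phyh, had a log2FC of -0.12, 0.21 and 0.36 at the 3 doses and did not pass. Its exons overlap with those of Btd on the opposite strand. They also overlap with those of Gm49387, a protein-coding gene on the same strand for which no values are given.

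Uox, urate oxidase, forms the crystalline core of rodent peroxisomes (ENSMUSG00000028186.14, chr3:146570426-146632305). Its values were 385 to 670 in control mice (median 552), 381 to 765 (median 552) at 1.5, 493 to 940 (median 796) at 15 and 375 to 670 (median 529) at 150 mg/kg. Again 11 of 13 mice at 15 mg/kg exceeded the highest control mouse, against 1 of 14 at 150 mg/kg. The log2FC at 15 mg/kg was 0.47 (SE 0.0883, adjusted p = 0.000178), 0.46 (adjusted p = 0.00169) without the libraries that stand apart. Between 150 and 15 mg/kg it was -0.54 (adjusted p = 1.18e-05).

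Pipox, the oxidase of sarcosine and pipecolic acid (chr11:77880615-77894096), had values of 31.3 to 66.3 in control mice (median 53.5), 36.7 to 76.2 (median 58.9) at 1.5, 36.3 to 97.6 (median 75.2) at 15 and 41.1 to 59.8 (median 52.2) at 150 mg/kg. At 15 mg/kg, 10 of 13 mice were above the highest control mouse and at 150 mg/kg none was. The log2FC at 15 mg/kg was 0.50 (SE 0.112, adjusted p = 0.00145), 0.57 (adjusted p = 0.00111) without the libraries that stand apart, and between 150 and 15 mg/kg it was -0.50 (adjusted p = 0.00102). Agxt, which removes glyoxylate, was 91.3 to 239 in control mice (median 117), 64.8 to 167 (median 112) at 1.5, 98.0 to 194 (median 135) at 15 and 80.7 to 165 (median 121) at 150 mg/kg. It passed between 15 and 1.5 mg/kg only (log2FC 0.36, adjusted p = 0.0473), and not without the libraries that stand apart (0.24, adjusted p = 0.390). Hao1, glycolate oxidase, had a log2FC of 0.09, 0.06 and 0.02 at the 3 doses.

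All 3 Nudix hydrolases were higher at 15 mg/kg. Nudt12, which cleaves NADH (chr17:58999618-59013372), had values of 4.59 to 10.3 in control mice (median 7.99), 4.91 to 9.14 (median 7.30) at 1.5, 7.04 to 18.8 (median 14.9) at 15 and 5.34 to 10.5 (median 8.40) at 150 mg/kg. The 5 libraries that stand apart held 16.0 to 18.8 and the other 8 of that group 7.04 to 15.3. The log2FC was 0.73 (SE 0.119, adjusted p = 2.28e-05), 0.44 (adjusted p = 0.0249) without those libraries.

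Nudt7, which cleaves coenzyme A (chr8:114133557-114154739), had values of 65.0 to 267 in control mice (median 194), 117 to 533 (median 268) at 1.5, 197 to 613 (median 285) at 15 and 135 to 311 (median 190) at 150 mg/kg. Every mouse at 15 mg/kg exceeded the control median and 8 of 13 the highest control mouse. The log2FC was 0.83 (SE 0.195, adjusted p = 0.00249), 0.61 (adjusted p = 0.0727) without the libraries that stand apart. At 1.5 mg/kg it was 0.51 (adjusted p = 0.230), with 7 of 13 mice above the highest control mouse, and at 150 mg/kg it was 0.09.

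Nudt19, the other coenzyme A hydrolase (chr7:35547185-35556304), was 15.3 to 28.0 in control mice (median 20.8), 17.0 to 33.4 (median 23.4) at 1.5, 17.4 to 37.7 (median 29.8) at 15 and 15.7 to 27.6 (median 23.1) at 150 mg/kg. Its log2FC at 15 mg/kg was 0.46 (SE 0.104, adjusted p = 0.00141), 0.45 (adjusted p = 0.0254) without the libraries that stand apart. Genes annotated on the opposite strand overlap with exons of Nudt12 (Nudt12os, mean value 0.0184) and Nudt19 (B230322F03Rik, mean value 0.545). Directly compared, all 3 hydrolases were lower at 150 than at 15 mg/kg, with a log2FC of -0.73 for Nudt7 (adjusted p = 0.00509), -0.58 for Nudt12 (adjusted p = 0.00031) and -0.40 for Nudt19 (adjusted p = 0.00395).

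**Figure D4:**
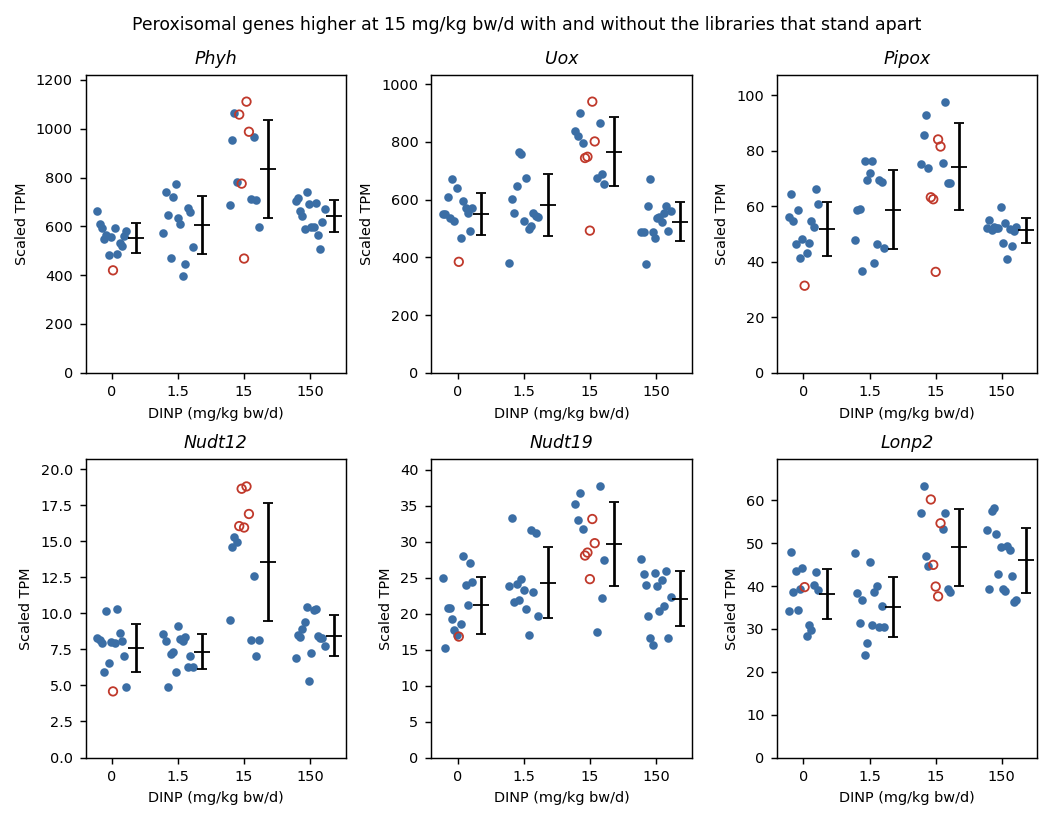
Scaled TPM (y axis, from 0) of Phyh, Uox, Pipox, Nudt12, Nudt19 and Lonp2 in each mouse by DINP dose (x axis), with the mean ± SD. Open red circles are the 6 libraries that stand apart. At 15 mg/kg 11 of 13 mice lie above the highest control mouse for Phyh and Uox, and 6 of 13 for Lonp2.

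Mlycd and Ephx2 of the same role did not pass against control. Mlycd, malonyl-CoA decarboxylase, was 25.1 to 34.2 in control mice (median 29.6), 23.3 to 35.3 (median 28.2) at 1.5, 25.5 to 38.1 (median 29.5) at 15 and 27.6 to 42.5 (median 35.1) at 150 mg/kg. At the highest dose 9 of 14 mice exceeded the highest control mouse. The log2FC there was 0.21 (adjusted p = 0.0880), and 0.29 against 1.5 mg/kg (adjusted p = 0.0061). Ephx2, soluble epoxide hydrolase, had a log2FC of 0.26 at 150 mg/kg (adjusted p = 0.193), with 8 of 14 mice above the highest control mouse.

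Lonp2, the peroxisomal protease, was higher at 15 mg/kg. Its values were 28.3 to 47.9 in control mice (median 39.2), 24.0 to 47.7 (median 35.3) at 1.5, 37.6 to 63.2 (median 47.0) at 15 and 36.3 to 58.3 (median 45.7) at 150 mg/kg. The groups overlapped, with 6 of 13 and 7 of 14 mice above the highest control mouse at the upper doses. The log2FC was 0.35 at 15 mg/kg (SE 0.0958, adjusted p = 0.00931), 0.39 (adjusted p = 0.0322) without the libraries that stand apart, and 0.26 at 150 mg/kg (adjusted p = 0.140). Against 1.5 mg/kg Lonp2 was higher at 15 (0.47, adjusted p = 0.00034) and at 150 mg/kg (0.39, adjusted p = 0.0100), and the upper doses differed by -0.09 (95% interval -0.27 to 0.10).

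Neither antioxidant enzyme passed against control. Catalase had values of 412 to 864 in control mice (median 685) and 644 to 877 (median 764) at 150 mg/kg, with a log2FC of 0.02, 0.01 and 0.19 at the 3 doses. Prdx5, a peroxiredoxin, was 332 to 467 in control mice (median 398), 390 to 520 (median 436) at 1.5, 300.4 to 455 (median 379) at 15 and 360 to 443 (median 405) at 150 mg/kg. It was lower at 15 than at 1.5 mg/kg (log2FC -0.22, adjusted p = 0.00277), and -0.18 (adjusted p = 0.0510) without the libraries that stand apart. Exons of Prdx5 overlap with those of Trmt112, which had a mean value of 71.2, on the opposite strand.

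Oxidation of branched chains and ether lipid synthesis showed no call against control. Amacr, the racemase that prepares branched acyl-CoA, was 27.5 to 44.7 in control mice (median 37.9), 26.9 to 45.9 (median 35.7) at 1.5, 31.4 to 68.6 (median 41.7) at 15 and 34.2 to 50.2 (median 38.8) at 150 mg/kg. It passed between 15 and 1.5 mg/kg only (log2FC 0.24, adjusted p = 0.0473), and not without the libraries that stand apart (0.12, adjusted p = 0.454). The side-chain oxidases Acox2 and Acox3 had a log2FC of 0.17 and -0.05 at 150 and of 0.05 and 0.25 at 15 mg/kg. Scp2, which holds the thiolase of this pathway, lay between -0.09 and -0.04 at the 3 doses. Agps and Gnpat, which start ether lipids, and Far1, which supplies their alcohol, lay between -0.06 and 0.18. Agps and Far1 had medians near 1 in every group, at the step of the table, which leaves small changes unresolved there.

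The direct contrast of 150 with 15 mg/kg tested whether these doses differed. Of the 38 genes, 4 (10.5%) were higher at 150 mg/kg and 10 (26.3%) were lower, against 9.85% and 10.1% of all genes tested. The 4 were Pex11a, Pxmp4, Hsdl2 and Pex14, and the 10 were Pex2, Pex5, Pex7, Pex13, Phyh, Uox, Pipox, Nudt7, Nudt12 and Nudt19. For Pex2 the log2FC was -0.69 (adjusted p = 0.000119), for Pex7 -0.34 (adjusted p = 0.00547) and for Pex13 -0.24 (adjusted p = 0.0386). Without the libraries that stand apart the split was 6 higher and 6 lower, against 4.43% and 4.09% of all genes in that fit: Pex6 and Pex19 were added, and Pex2, Pex7, Pex13 and Nudt12 no longer passed. The log2FC between these doses was then 1.20 for Pex11a, 0.27 for Pxmp4, 0.36 for Hsdl2 and 0.26 for Pex14. For the genes lower at 150 mg/kg in both fits it was -0.24 for Pex5, -0.31 for Phyh, -0.57 for Uox, -0.62 for Pipox, -0.63 for Nudt7 and -0.41 for Nudt19. For those that no longer passed it was -0.33 for Pex2, -0.14 for Pex7, -0.08 for Pex13 and -0.34 for Nudt12.

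Against 1.5 mg/kg, 11 of the 38 genes (28.9%) were higher and 1 (2.63%) lower at 15 mg/kg, when 10.9% and 10.5% of all genes were. These were 7 and 0 genes without the libraries that stand apart, against 3.32% and 3.24% of all genes. The 7 were Pex2 (log2FC 0.38), Pex7 (0.35), Phyh (0.42), Uox (0.44), Pipox (0.46), Nudt12 (0.52) and Lonp2 (0.50). At 150 mg/kg 8 genes (21.1%) were higher than at 1.5 mg/kg and 0 lower, against 2.55% and 2.06% of all genes, namely Pex3, Pex6, Pex11a, Pex14, Pxmp4, Mlycd, Lonp2 and Hsdl2. Abcd2 and Hacl1 passed as well without the libraries that stand apart. None of those libraries is in the 1.5 or 150 mg/kg group, so no log2FC of this contrast changed. Only the estimate of spread, which all groups share, differed, and the share of all genes was not computed for that fit.

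For comparison, other peroxisomal genes were counted. Of 65 further genes listed, 59 stood in the table and 56 were tested. At 150 mg/kg 12 of the 56 (21.4%) were higher than in control and 1 (1.79%) lower, against 1.49% and 0.682% of all genes tested. Of the 14 tested in straight-chain β-oxidation 8 were higher, among them Ehhadh (log2FC 1.54, adjusted p = 1.13e-13), the bifunctional enzyme, and Eci2 (0.58, adjusted p = 6.81e-05), an isomerase. The test was also passed, with higher values, by 3 of 9 membrane transport genes, 1 of 19 other matrix enzymes, 0 of 4 further peroxins and 0 of 10 division and tethering genes. At 15 mg/kg 4 of the 56 (7.14%) were higher and 2 (3.57%) lower, no more than the 7.57% and 6.61% of all genes. The lowest adjusted p were those of Sod1 (log2FC 0.38, adjusted p = 0.000883), superoxide dismutase, and Eci2 (0.37, adjusted p = 0.00626). When the libraries that stand apart were left out, 2 (3.57%) were higher and 1 lower, against 2.48% and 2.26% of all genes. Neither Sod1 nor Eci2 was among them, and the median log2FC of the 56 went from 0.08 to -0.01. At 1.5 mg/kg 1 (1.79%) was higher and 0 lower, against 0.674% and 0.525% of all genes. Without those libraries, of which control replicate 8 bears on this contrast, 2 were higher and 3 lower. At 150 mg/kg the counts without those libraries were again 12 and 1. For that fit the share of all genes was computed neither at 1.5 nor at 150 mg/kg, so these counts stand without a comparison.

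Against control, cell type markers passed at 15 mg/kg only. Of 51 markers tested, Ttr of hepatocytes was higher (log2FC 0.42), and Csf1r of macrophages (-0.60) and Pecam1 of endothelium (-0.52) were lower. At this dose 7.57% of all genes tested were higher and 6.61% lower, so that markers passed no more often than genes at large. Without the libraries that stand apart these 3 did not pass, with a log2FC of 0.22, -0.43 and -0.25, and the hepatocyte marker Ass1 did (0.59, adjusted p = 0.0315). The 13 macrophage markers summed to 182 to 571 in control mice and 151 to 435 at 15 mg/kg, and the 8 endothelial markers to 89.4 to 112 and 82.4 to 115. The part of other cell types in the results was not tested.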

How the data were processed

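Total RNA of the medial liver lobe was sequenced with QuantSeq 3′ mRNA libraries. The authors used nf-core/rnaseq 3.14.0 with STAR, RSEM and Salmon on GRCm38, and DESeq2 for their tests. The deposited table holds a signal, taken here to be rounded TPM that were then scaled between samples, since in each sample values are whole multiples of 1 step (0.765 to 1.11, tolerance 0.001). No count test was run on it, and depth is unknown. Whether counting used strand is not given in the sources used here.

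Groups come from the sample titles. All rows with a mean of at least 1 were fitted on log2(value + 1) with limma 3.58.1 in R 4.3.3 (lmFit, eBayes with a trend), 4 groups in 1 fit, and 6 contrasts were adjusted separately by the Benjamini-Hochberg method. Each mouse is taken as 1 replicate. Intervals are log2FC ± 1.96 SE. A gene is described in full where it passed in any contrast, and others by their log2FC. At most 3 further peroxisomal genes per dose are named, from those with the lowest adjusted p, and 1 of these is not reported here. Members and lists were chosen with earlier results of these data known. Libraries that stand apart had a median correlation with their group under 0.946, a limit chosen after the data were seen. The fit was tested on simulated data with 200 genes shifted at 150 mg/kg, of which it recovered 185, and it called 9 others. The simulated noise was independent between genes and mice. It therefore does not show how the fit behaves with libraries that stand apart. Alternatives were pseudocounts of 0.1 and 5, no filter or a minimum mean of 5, quantile normalization, 2 groups alone, array weights, the replicate number as a block and each library left out.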

Additional observations from a re-analysis of the deposited data

How the results depend on the processing

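No log2FC of a call changed sign. Across the alternatives other than single libraries left out, 401 of 449 pairings of a call with a setting kept the call and 48 lost it. Those settings include the fit without the libraries that stand apart. Of 50 calls, counting each gene in each contrast it passed in, 40 held with every library left out in turn and 10 did not: Pex14 between 1.5 mg/kg and control, Pex13 between 15 and control, Pex5, Amacr, Agxt and Pipox between 15 and 1.5, Pex3 and Pex6 between 150 and 1.5, and Pex5 and Pex13 between 150 and 15 mg/kg. Pipox lost its call without replicate 4, 9 or 13 at 1.5 or replicate 11 at 15 mg/kg (adjusted p up to 0.0609), and Pex5 at 150 against 15 without replicate 9 at 15 or replicate 10 at 150 mg/kg. The call of Pex14 at 1.5 mg/kg was the only one there, so that its count was 0 with no filter, with the 2 groups alone and with the replicate block, and 0 to 1 with a library left out. The count beyond a log2FC of 0.5 at 15 mg/kg was 3 to 5 with a library left out, and 5 without replicate 7 or replicate 10 of that dose. Without the libraries that stand apart, an alternative chosen after seeing the data, 6 genes passed at 15 mg/kg in place of 12, and 7 against 1.5 mg/kg in place of 12. Leaving out 1 library at a time cannot show this where several libraries carry a call. Pex2 and Pex7 at 15 mg/kg against control held in every such fit. Array quality weights ended the calls of Pex2 (log2FC 0.32, adjusted p = 0.0820), Pex7 (0.24, adjusted p = 0.0705) and Pex13 (0.17, adjusted p = 0.161) against control at 15 mg/kg. Deviations of same-numbered mice of different groups had a mean correlation of -0.0025 (79 pairs, from -0.359 to 0.243, 12.7% above 0.1). Differently numbered mice were not compared, so this cannot tell whether a replicate number marks a shared run or preparation. The replicate block left 11 of 12 calls at 15 mg/kg and 3 of 3 at 150 mg/kg against control. It left 9 of 12 between 15 and 1.5, 7 of 8 between 150 and 1.5 and 13 of 14 between 150 and 15 mg/kg. The cause of these changes was not tested. The rounding to about 1 unit limits genes with values near 1 and is coarse for values of a few units, as in Pex26.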
